A study of Homo sapiens with 20 samples.

Results

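Extracellular-vesicle RNA was compared between colorectal cancer cell lines whose cells express a set of intestinal differentiation genes strongly and lines whose cells express it weakly. The lines were chosen by the mean log2(CPM + 1) of CDH17, LGALS4, CEACAM5 and CEACAM6 in their cell libraries, where CPM is a gene's counts scaled to a fixed library total. The vesicle libraries of the 5 highest lines were set against those of the 5 lowest, which makes 10 of the 20 libraries in the series. The higher-scoring lines were LS513, SNU-C1, LS1034, LoVo and HT-29, and the lower-scoring lines were WiDr, COLO-201, SW480, LS123 and HCT 116. The groups were thus set by cell RNA alone, and the 4 scoring genes are left out of all results below. Because a line's cells and vesicles come from the same line, the cell values of other genes are given beside the vesicle values as a description, with no test.

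The series asks how far vesicle transcriptomes resemble those of the cells they come from. All 10 lines are labelled as untreated wild-type adenocarcinoma lines of the large intestine, LS1034 and LS513 from the cecum and the others from the colon. They grew in RPMI-1640 or DMEM with fetal bovine serum. Vesicle RNA was taken up with an exosome RNA isolation kit and amplified by a low-input SMART-Seq method before Nextera library preparation. There was 1 vesicle library per line, so the line is the replicate (n = 5 per group), and the spread between cultures of 1 line was not measured.

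Colonic epithelium renews from stem cells whose progeny become absorptive cells, which carry a brush border, or mucus-secreting goblet cells. Homeobox factors such as CDX1 and CDX2 and nuclear receptors such as HNF4A keep up the intestinal programme in these cells. Colorectal tumours hold on to it to different degrees, and loss of it often goes with genes of a mesenchymal state. Cells release membrane-bound vesicles that enclose cytoplasm and fragments of its mRNA.

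The scores that set the groups were 10.27 in LS513, 10.17 in SNU-C1, 9.51 in LS1034, 8.0 in LoVo and 6.01 in HT-29. They were 5.35 in WiDr, 1.77 in COLO-201, 1.21 in SW480, 0.23 in LS123 and 0.10 in HCT 116. The boundary fell in a gap of 0.66 between HT-29 and WiDr, which were derived from the same donor, while the widest gap, 3.58, lay between WiDr and COLO-201. WiDr cells carried LGALS4 at 1036 CPM, as HT-29 cells did at 1039 CPM, so the word undifferentiated does not describe WiDr on this score. The groups are therefore called higher-scoring and lower-scoring. From here on CPM in vesicles and cells is scaled by the trimmed mean of M values (TMM), unless the library total is named. EPCAM, an epithelial adhesion molecule, was present in the vesicles of both, at 338 ± 191 CPM (SD, n = 5) in the higher-scoring and 342 ± 186 CPM (n = 5) in the lower-scoring lines.

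**Figure D1:**
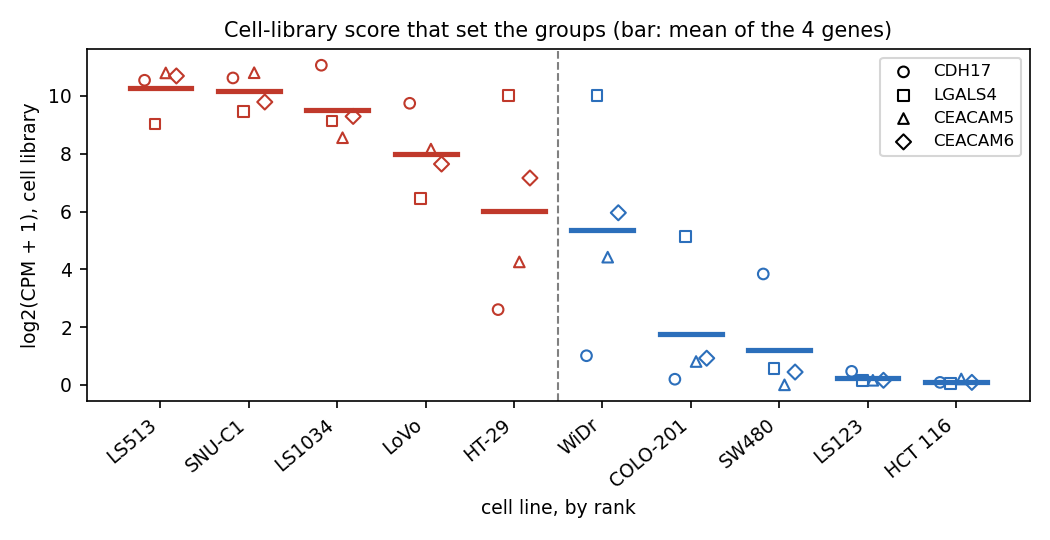
Cell-library score of each line on the y axis, log2(CPM + 1), with lines on the x axis by rank. Open symbols are the 4 scoring genes, bars their mean (red for the higher-scoring and blue for the lower-scoring lines), and the dashed line is the group boundary. HT-29 at 6.01 and WiDr at 5.35 lie close together on either side of it.

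Vesicle libraries held 1.75 to 24.4 M counts, so a gene with 0 counts could still be present at up to 3 counts, which is 0.17 to 0.885 CPM depending on the library (counting error only). Some 2081 genes had at most 10 counts in every cell library, and these silent genes took 0.206 to 4.09% of vesicle counts in the higher-scoring lines and 0.167 to 3.37% in the lower-scoring lines. SNU-C1 at 4.09%, LS123 at 3.37% and WiDr at 2.47% stood highest. Among the 1350 silent genes with enough vesicle counts to be tested below, the median read between 1.05 CPM in HT-29 and 11.6 CPM in SNU-C1. Neither depth, nor the number of genes with at least 10 counts, nor the silent-gene share differed between the groups in a two-sided exact permutation test over the 10 libraries (p = 0.897, 0.341 and 0.698, each 0.897 after Benjamini-Hochberg adjustment over the 3 measures; the smallest p this design allows is 0.00794). Vesicle levels in this range were thus also read from genes that the cells do not express. Cells and vesicles were also set apart by likeness: HT-29 and WiDr had the highest correlation of all 45 pairs of cell libraries (r = 0.98 across genes) and only rank 25 among vesicle pairs (r = 0.75). LS123 and HCT 116 cells came next at 0.95, with 0.74 in vesicles. The highest vesicle correlations, 0.88, were those of HT-29 with SW480 and with COLO-201. The silent-gene shares of these libraries were low, at 0.206% in HT-29, 0.167% in SW480 and 0.189% in COLO-201. SNU-C1 and LS123, with the highest shares, correlated at 0.70. The part of silent-gene reads in vesicle likeness was not tested.

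**Figure D2:**
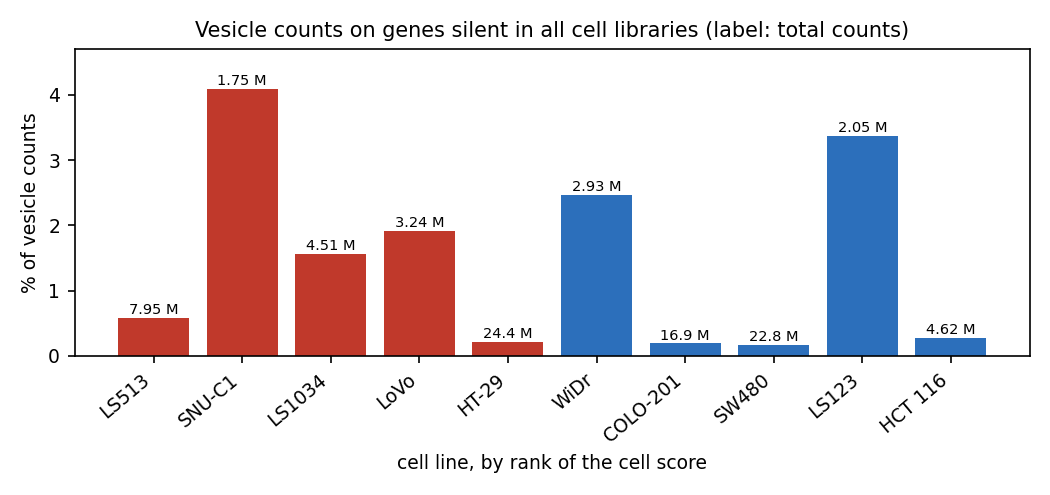
Percent of vesicle counts on genes silent in all cell libraries (y axis) by line (x axis, by rank of the cell score). Bars are single libraries, red for higher-scoring and blue for lower-scoring lines, labelled with total counts (M). SNU-C1 and LS123, in different groups, are highest.

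No gene differed between the groups after correction for multiple tests. Of 15888 genes tested with edgeR's quasi-likelihood test, 0 (0% of those tested) were called higher and 0 (0%) lower at a Benjamini-Hochberg adjusted p under 0.05, and the smallest adjusted p was 0.513. At an unadjusted p under 0.05, 326 genes (2.05%) stood higher and 336 (2.11%) lower in the higher-scoring lines. Every higher library exceeded every lower one for 58 genes (0.365% of those tested), and the reverse held for 30 genes (0.189%). With CPM by library total these counts were 31 and 24. DESeq2's Wald test on the same counts called 7 genes higher and 18 lower, so the number of calls depends on the tool. The genes below are therefore named by the smallest unadjusted p in each direction, and none of their differences passed edgeR's adjusted threshold.

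Likeness between whole vesicle libraries had the same median within and between groups. Correlations between vesicle libraries across genes ranged from 0.55 to 0.87 with a median of 0.76 within groups (20 pairs), and from 0.52 to 0.88 with a median of 0.76 between groups (25 pairs). Genes are not independent replicates, and these are descriptions in which the part of silent-gene reads was not tested.

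Among genes higher in the higher-scoring lines, RHOU, an atypical small GTPase, had the smallest p. Its vesicle level was 85.5 CPM in LS513, 30.3 in SNU-C1, 28.7 in LS1034, 31.2 in LoVo and 41.1 in HT-29, against 5.2 in WiDr, 7.72 in COLO-201, 2.22 in SW480, 8.26 in LS123 and 3.21 in HCT 116. The groups did not overlap. The 5 lower-scoring libraries held 165 RHOU counts in all, where 129 would be expected of a silent gene of its exonic length. The log2 fold change was 3.03 ± 0.54 (SE; edgeR adjusted p = 0.513), close to the 2.90 seen in the cells. HT-29 and WiDr, whose cells read 35.6 and 24 CPM, fell on opposite sides in vesicles.

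CDX1, the intestinal homeobox factor, divided the higher-scoring lines themselves. It read 409 CPM in LS513, 175 in LS1034 and 68.3 in SNU-C1, but 5.56 in LoVo and 3.46 in HT-29. All 5 lower-scoring libraries lay between 1.23 and 4.26 CPM, so the groups overlapped by HT-29 alone. In cells the same 3 lines carried it, at 181 to 278 CPM, and LoVo and HT-29 stood at 2.22 and 1.94 CPM. The log2 fold change in vesicles was 5.82 ± 1.13 (edgeR adjusted p = 0.674).

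FABP1, the fatty acid-binding protein of enterocytes and liver, followed the same split. Its vesicle level was 585 CPM in LS513, 395 in SNU-C1 and 133 in LS1034, and 1.69 and 2.21 CPM in LoVo and HT-29. The lower-scoring lines read 0.832 to 9.06 CPM, above LoVo in 3 of 5 libraries. Its log2 fold change was 5.65 ± 1.37 (edgeR adjusted p = 0.971), and so rests on 3 lines.

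DDC, the decarboxylase that makes dopamine and serotonin from their precursors, was present in all higher-scoring vesicles. It stood at 120 CPM in LS513, 20.2 in SNU-C1, 38.9 in LS1034, 40.3 in LoVo and 60.1 in HT-29, and between 3.21 and 13.9 CPM in the lower-scoring lines. The groups did not overlap (log2 fold change 2.72 ± 0.58, edgeR adjusted p = 0.685). GPR160, an orphan G protein-coupled receptor, read 292 CPM in LS513, 283 in SNU-C1, 70.2 in LS1034, 74.9 in LoVo and 84.6 in HT-29. Its 5 lower-scoring libraries lay between 20 and 41.8 CPM, again without overlap. PDE4C, a cAMP phosphodiesterase, ran from 43 CPM in LoVo to 102 in LS513, above the 6.42 to 34.3 CPM of the lower-scoring lines, where WiDr was highest.

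MUC13, a transmembrane mucin of the gut surface, had an even level across the higher-scoring lines. It was 47.9 CPM in LS513, 50.5 in SNU-C1, 25.3 in LS1034, 35.5 in LoVo and 46.5 in HT-29. In the lower-scoring lines it was 20.3 in WiDr, 8.62 in COLO-201, 10.5 in SW480, 13.1 in LS123 and 2.92 in HCT 116. WiDr thus came closest to the higher-scoring group, and the groups did not overlap. The log2 fold change was 1.89 ± 0.50 in vesicles (edgeR adjusted p = 0.971) and 3.54 in cells.

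Other leading genes were high in a few of the higher-scoring lines. SPINK4, a goblet-cell protease inhibitor, stood at 1143 CPM in LS513 and at 2.82 to 28 CPM in the other higher-scoring lines. Its log2 fold change of 6.41 came to 2.11 without LS513. IL33, an epithelial alarmin cytokine, was 1454 CPM in LS513, 91.1 in LoVo, 87.1 in LS1034, 19.5 in HT-29 and 6.54 in SNU-C1. The lower-scoring lines held IL33 at 0 to 11.2 CPM, and its log2 fold change of 6.21 came to 3.53 without LS513. KLK1, tissue kallikrein, was high in LS513 (308 CPM) and LS1034 (272 CPM) alone, and IGFL2, a secreted factor of the IGF-like family, in LS513 (224 CPM) and LoVo (113 CPM). KNDC1 was scarce in cells, where no library exceeded 2.19 CPM and the groups overlapped (log2 fold change -0.34). Its vesicle groups did not overlap (19.7 to 69.5 against 4.67 to 15.4 CPM). SNU-C1, the library with the highest silent-gene share, was highest at 69.5 CPM. With CPM by library total the KNDC1 groups overlapped.

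Among genes lower in the higher-scoring lines, EMP3, a small tetraspan membrane protein, had the smallest p. Its vesicle level was 6.43 CPM in LS513, 3.57 in SNU-C1, 13.3 in LS1034, 4.83 in LoVo and 9.3 in HT-29. It was 15.4 CPM in WiDr, 29.4 in COLO-201, 47.8 in SW480, 68 in LS123 and 66.2 in HCT 116, so the groups did not overlap but WiDr lay next to LS1034. With CPM by library total they overlapped. The log2 fold change was -2.58 ± 0.53 (edgeR adjusted p = 0.685), against -4.39 in cells.

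GDAP1, a mitochondrial outer-membrane protein, and HSDL1, a short-chain dehydrogenase-like protein, also had groups without overlap. GDAP1 stood at 11.3 to 15.5 CPM in the higher-scoring lines, and at 20.6 in WiDr, 34.6 in LS123, 44.6 in HCT 116, 50.9 in SW480 and 61.8 in COLO-201. Its groups stayed apart with CPM by library total. SNU-C1 cells held GDAP1 at 65 CPM and WiDr cells at 2.79 CPM, so the order of the lines in vesicles was not that in cells. HSDL1 stood at 9.42 to 16.5 CPM against 23.4 to 72 CPM, and its groups overlapped with CPM by library total.

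Of the 12 leading genes lower in the higher-scoring lines, the largest difference was in LGALS1, galectin-1, a lectin abundant in mesenchymal cells. It was 4.82 CPM in LS513, 4.16 in SNU-C1, 68.5 in LS1034, 3.62 in LoVo and 18.2 in HT-29. The lower-scoring lines read 9.7 CPM in WiDr, 2024 in COLO-201, 653 in SW480, 131 in LS123 and 453 in HCT 116. WiDr fell among the higher-scoring lines, and the other 4 lay above all of them. The log2 fold change was -5.04 ± 1.28 (edgeR adjusted p = 0.971), near the -5.25 of the cells.

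ECI2, an enoyl-CoA isomerase of fatty acid oxidation, split the lines in the same manner. Its level was 3.75 to 11.5 CPM in the higher-scoring lines and 4.73 CPM in WiDr, but 116 in COLO-201, 160 in SW480, 24.2 in LS123 and 153 in HCT 116. WiDr cells held it at 0.786 CPM. Over the 10 libraries the log2 fold change was -3.54 ± 0.76 (edgeR adjusted p = 0.685). Without WiDr and LS123 it was -4.18 and passed (edgeR adjusted p = 0.0117), as did FGF19 at -3.51 (edgeR adjusted p = 0.0476). With WiDr moved to the higher-scoring lines, a grouping chosen after the data were seen, ECI2 alone passed (log2 fold change -3.96, edgeR adjusted p = 0.025).

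FGF19, the gut hormone that lowers bile acid synthesis in the liver, stood at 3.57 to 11.6 CPM in the higher-scoring lines. The lower-scoring lines read 32.9 CPM in WiDr, 101 in COLO-201, 126 in SW480, 8.79 in LS123 and 51.3 in HCT 116, so LS123 alone overlapped. CFL2, a cofilin that severs actin, ran from 5.18 to 23.7 CPM against 16.1 in WiDr, 25.4 in COLO-201, 35.7 in LS123, 86.9 in SW480 and 272 in HCT 116. The remaining leading genes were MSX1, a homeobox factor, PDK3, a pyruvate dehydrogenase kinase, WWTR1, the transcriptional coactivator also called TAZ, MACROH2A2, a histone variant, and GMFG, an actin regulator. Their log2 fold changes were -2.45, -3.11, -2.06, -3.24 and -3.71, each with overlapping groups. GMFG rested on COLO-201, at 238 CPM against 15.1 CPM or less in every other line.

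**Figure D3:**
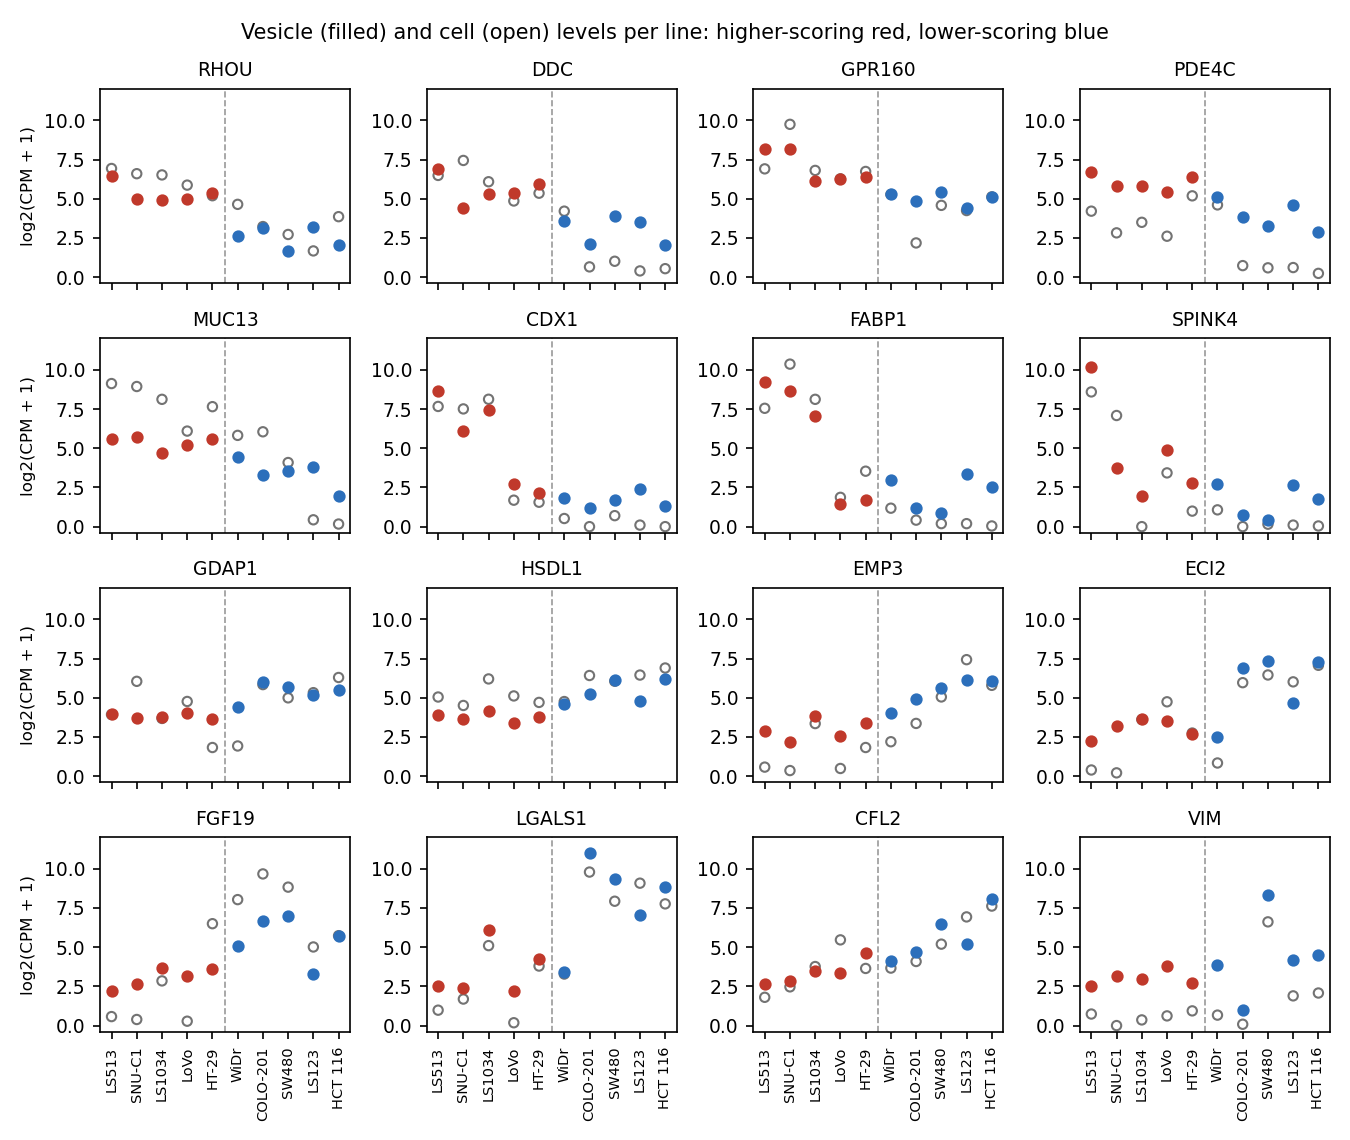
Level of 16 genes, log2(CPM + 1) on the y axis, in the vesicle library (filled; red higher-scoring, blue lower-scoring) and the cell library (open) of each line on the x axis, by rank. Each point is 1 library and the dashed line is the group boundary. RHOU, DDC, GPR160, PDE4C and MUC13 separate the vesicle groups completely, whereas CDX1 and FABP1 are high in 3 higher-scoring lines and WiDr resembles the higher-scoring lines in ECI2 and LGALS1. Over all genes tested, complete separation was no more frequent than chance alone would give.

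Promoter sequences are shown for FABP1 and MUC13, the leading genes higher in the higher-scoring lines that held a match to an intestinal factor motif, and for RHOU and EMP3, which had the smallest p in each direction. Each run is the 250 bases before the start site in RefSeq on GRCh38.p14, read 5′ to 3′ on the gene's strand. FABP1 is at chr2:88128063-88128312 (minus strand), MUC13 at chr3:124934752-124935001 (minus), RHOU at chr1:228644397-228644646 (plus) and EMP3 at chr19:48325302-48325551 (plus). Capitals mark matches on either strand to TTTATG (a CDX core) or CAAAGTCCA (an HNF4 site).
FABP1: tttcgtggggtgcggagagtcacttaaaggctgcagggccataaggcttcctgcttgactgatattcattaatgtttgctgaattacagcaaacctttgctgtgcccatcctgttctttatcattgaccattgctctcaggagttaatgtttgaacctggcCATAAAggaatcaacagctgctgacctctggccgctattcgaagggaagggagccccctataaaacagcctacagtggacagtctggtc
MUC13: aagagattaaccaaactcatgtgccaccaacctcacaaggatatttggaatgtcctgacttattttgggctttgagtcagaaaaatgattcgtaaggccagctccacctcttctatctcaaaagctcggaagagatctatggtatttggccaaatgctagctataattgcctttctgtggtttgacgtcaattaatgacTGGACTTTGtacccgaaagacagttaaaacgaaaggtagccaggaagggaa
RHOU: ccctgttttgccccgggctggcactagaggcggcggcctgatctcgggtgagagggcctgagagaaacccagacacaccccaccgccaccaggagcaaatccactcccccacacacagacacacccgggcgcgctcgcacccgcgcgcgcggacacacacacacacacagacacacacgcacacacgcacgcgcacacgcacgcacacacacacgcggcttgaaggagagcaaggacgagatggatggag
EMP3: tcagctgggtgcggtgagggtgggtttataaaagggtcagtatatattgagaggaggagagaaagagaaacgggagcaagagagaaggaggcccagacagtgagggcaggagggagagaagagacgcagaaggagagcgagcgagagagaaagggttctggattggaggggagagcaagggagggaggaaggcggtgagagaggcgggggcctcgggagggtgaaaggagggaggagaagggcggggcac

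FABP1 held a TTTATG match, MUC13 a CAAAGTCCA match, and RHOU and EMP3 held neither. Among the leading genes lower in the higher-scoring lines, WWTR1 and GMFG held a TTTATG match. Over 35116 RefSeq promoter windows of this length, TTTATG was found in 9.64% and CAAAGTCCA in 0.325%. Of the 24 leading genes, 18 had a window, 10 of those higher and 8 of those lower. TTTATG occurred in 1 of the 10 and 2 of the 8, and CAAAGTCCA in 1 of the 10 and 0 of the 8. These are matches of letters and say nothing of binding.

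Gene lists were then read by their members. For a list, the counts below are members at an unadjusted edgeR p under 0.05, to be read against 2.05% (higher) and 2.11% (lower) of all genes tested, whose median log2 fold change was -0.05. A gene entered the test with about 2.19 CPM in 5 libraries, so a member present in 1 group alone could enter. These counts are descriptions, and 0 members of any list passed edgeR's adjusted threshold. Over 24 alternative settings the list median stayed at 0.60 to 1.93 for brush border genes, 0.75 to 1.96 for mucin and secretory genes, 0.32 to 1.28 for intestinal transcription factors, -1.46 to -0.76 for MAPK output genes and -1.82 to -0.21 for cell cycle genes. Leukocyte markers and other CEACAM genes also stayed above 0, at 0.35 to 2.05 and 0.18 to 1.78. So did junction and keratin genes (0.16 to 0.55) and interferon and antigen presentation genes (0.04 to 0.72). Wnt and stem cell genes stayed above 0 as well (0.01 to 0.50), and mRNAs of cell protrusions stayed below it (-0.95 to -0.10). A constant sign was thus not particular to the differentiation lists. The upper ends for brush border, mucin and leukocyte lists all came from the fit without WiDr and LS123. Fibroblast and endothelial markers reached their upper end of 1.85 in that fit too. In bulk libraries, fewer cells of a type and less RNA per cell cannot be told apart.

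Brush border and enterocyte genes stood higher in the vesicles of the higher-scoring lines. Of 31 listed, 30 were tested, 24 had a log2 fold change above 0 and 7 had a p under 0.05, all higher, with a median of 0.76. Besides FABP1 these were KRT20, PHGR1, TSPAN8, GPA33, MYO1A and MYO7B. TSPAN8, a tetraspanin of epithelial vesicles, was the most even of the abundant ones: 985 CPM in LS513, 104 in SNU-C1, 800 in LS1034, 869 in LoVo and 567 in HT-29, against 378 in WiDr, 75.4 in COLO-201, 34 in SW480, 9.86 in LS123 and 0 in HCT 116. WiDr again lay within the higher-scoring range. KRT20, the keratin of mature colonocytes, was 1355 CPM in HT-29, 921 in LS513, 255 in LS1034, 11 in SNU-C1 and 10.4 in LoVo, and 123 in WiDr, 48.1 in COLO-201 and 0 to 5.6 in the others. PHGR1, a small protein of the gut epithelium, stood at 1370 CPM in LS513 and 950 in LS1034 and at 10.9 to 84.2 in the other higher-scoring lines, with 127 in COLO-201. VIL1, the microvillus protein villin, did not follow the groups: COLO-201 (272 CPM) and SW480 (258) were as high as LS1034 (256), and its log2 fold change was 0.58 ± 1.02 (edgeR adjusted p = 0.98).

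As a share of all vesicle counts, the brush border list took 0.276% ± 0.0864 (SD, n = 5) in the higher-scoring lines and 0.0749% ± 0.0474 (n = 5) in the lower-scoring lines. The single values were 0.361% in LS513, 0.25% in SNU-C1, 0.372% in LS1034, 0.182% in LoVo and 0.214% in HT-29. The lower-scoring values were 0.15% in WiDr, 0.0543% in COLO-201, 0.051% in SW480, 0.0908% in LS123 and 0.0286% in HCT 116. The ranges did not meet, with WiDr closest.

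Mucin, goblet and secretory genes were nearly all above 0. Of 34 listed, 30 were tested, 29 stood above 0 and 7 had a p under 0.05, all higher, with a median of 0.89. Beside SPINK4 and MUC13 these were REG4, TFF1, AGR3, SPDEF and ATOH1, the last 2 being transcription factors of the secretory lineage. ATOH1 read 1.93 to 5.82 CPM in the higher-scoring lines, a range that silent genes also reached. SPDEF read 13.4 CPM in SNU-C1, 14.5 in LS1034 and 9.42 in LoVo. These lay below the 90th percentile of silent genes in each library (26.8, 18 and 19.1 CPM) and below WiDr at 17.3 CPM. SPDEF lay above that percentile in HT-29 (56.7 against 4.88 CPM) and LS513 (16.2 against 10.5 CPM). REG4, a secreted lectin, was 391 CPM in LoVo, 47.9 in LS513, 35.9 in HT-29, 11.9 in SNU-C1 and 3.76 in LS1034, and 32.2 in WiDr, with 0 to 7.73 CPM in the other lower-scoring lines. AGR3 was highest in HT-29 (256 CPM) and LS513 (48.9), with WiDr at 34.3 CPM. MUC2, the gel-forming goblet mucin, was not among them: it stood at 61.4 ± 33.7 CPM (SD, n = 5) against 33.7 ± 13 CPM (n = 5). These means did not follow the cells. SNU-C1 was highest in vesicles at 114 CPM, with 0.124 CPM in its cells. LS513, highest in cells at 93.1 CPM, read 49.6 CPM in vesicles. TFF3 was 1423 CPM in LS513 and 0.483 to 105 CPM in the other higher-scoring lines, and its log2 fold change of 1.97 turned to -0.83 without LS513.

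Intestinal transcription factors were mostly above 0 but small. Of 23 listed, 22 were tested, 20 stood above 0 and CDX1, CDX2 and HNF4G had a p under 0.05, with a median of 0.50. Leukocyte markers, given with the other cell types' genes, had a median of 0.60 in the same fit. CDX2 was 69.5 CPM in LS513, 79.6 in SNU-C1, 53.5 in LS1034, 30.7 in LoVo and 7.71 in HT-29. It was 5.2 CPM in WiDr, 9.29 in COLO-201, 25.7 in SW480, 18.9 in LS123 and 27.1 in HCT 116, so HT-29 fell among the lower-scoring lines. HNF4A stood at 49.2 to 135 CPM in the higher-scoring lines and 26.6 to 60.3 CPM in the lower-scoring lines other than HCT 116, where it was 2.62. OVOL1, a factor that opposes mesenchymal transition, was the 1 member without overlap, at 17.4 to 24.8 against 5.55 to 15.1 CPM (0.365% of all genes tested were higher without overlap), named here after its values were seen. With CPM by library total its groups overlapped.

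Mesenchymal transition genes were divided. Of 33 listed, 29 were tested, 8 had a p under 0.05 and stood lower in the higher-scoring lines, and 1, TGFBI, stood higher. The median was -0.38, and it was 0.17 with the 4 highest against the 4 lowest lines, so the list as a whole had no stable direction. Besides LGALS1 and EMP3 the 8 were S100A4, AKAP12, CAV1, CAV2, VIM and ZEB1. S100A4, a calcium-binding protein of motile cells, reached 12519 CPM in COLO-201 and 1978 in SW480, with 540 in HCT 116, 195 in LS123 and 113 in WiDr, against 12.5 to 300 CPM in the higher-scoring lines. CAV1, the coat protein of caveolae, was 839 CPM in HCT 116, 405 in COLO-201, 390 in LS123, 96.7 in SW480 and 20.8 in WiDr, against 4.11 to 89.2 CPM. AKAP12, a kinase scaffold, was 2392 CPM in HCT 116, 538 in LS123 and 137 in SW480, and 22.7 to 47.6 CPM in COLO-201 and WiDr, both within the 15.5 to 60.8 CPM of the higher-scoring lines.

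VIM, the mesenchymal intermediate filament, rested on SW480. It was 327 CPM there, 21.9 in HCT 116, 17.3 in LS123, 13.5 in WiDr and 1.01 in COLO-201, against 4.82 to 12.8 CPM in the higher-scoring lines, and its log2 fold change of -3.33 came to -0.81 without SW480. TGFBI, an extracellular matrix protein, was 603 CPM in LS1034 and 446 in LS513, with 20.6 to 64.2 CPM in the other higher-scoring lines and 3.21 to 69.6 CPM in the lower-scoring lines. The list's share of vesicle counts was 0.107% ± 0.0315 (SD, n = 5) in the higher-scoring lines and 0.419% ± 0.277 (n = 5) in the lower-scoring lines. The ranges, 0.0709 to 0.153% and 0.146 to 0.866%, overlapped by WiDr.

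Output genes of the MAPK pathway, which RAS and RAF activate, stood lower in the higher-scoring lines. Of 16 tested, 2 had a log2 fold change above 0 and 6 had a p under 0.05: FOSL1, DUSP4, DUSP5, DUSP6, IER3 and PHLDA1. The median was -1.01. FOSL1, an AP-1 subunit, stood at 30.5 CPM in LS513, 16 in SNU-C1, 37.4 in LS1034, 29 in LoVo and 67.2 in HT-29, and at 40.2 in WiDr, 202 in COLO-201, 122 in SW480, 97 in LS123 and 171 in HCT 116. The groups overlapped by HT-29 and WiDr and did not overlap with CPM by library total. DUSP6, an ERK phosphatase, reached 515 CPM in COLO-201, 208 in SW480 and 144 in HCT 116, while LS123 (42.1) and WiDr (46.6) lay within the 8.91 to 106 CPM of the higher-scoring lines.

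Cell cycle genes had 0 of 30 members with a p under 0.05, although 1 of 30 had a log2 fold change above 0 (median -0.64). CDC6, a replication licensing factor, stood at 50.8 ± 38.4 CPM (SD, n = 5) against 136 ± 107 CPM (n = 5). With the 4 highest against the 4 lowest lines, 15 of the 30 stood lower at a p under 0.05 and the median was -1.55. That count is to be read against 1103 of 15957 genes lower at a p under 0.05 in the same fit, not against 2.11%.

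Interferon and antigen presentation genes had 3 of 27 tested members with a p under 0.05, all higher: IFITM1, OAS1 and HLA-E. IFITM1, an interferon-induced membrane protein, stood at 153 CPM in LS1034, 77 in SNU-C1 and 36.2 in LS513, and at 3.38 or less in LoVo and HT-29, against 1.57 to 10.6 CPM in the lower-scoring lines. IFITM1 and HLA-E have close paralogs, so their counts are uncertain. Of 31 HOX genes tested, HOXA13, which patterns the hindgut, alone had a p under 0.05. It ran from 18.6 to 46.4 CPM in the higher-scoring lines and from 7.99 to 22 CPM in the lower-scoring lines, WiDr being highest of these.

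The remaining epithelial lists held few such members. Junction and keratin genes had 2 of 37 with a p under 0.05, CLDN3 and TJP3, and a median of 0.26. CLDN3, a tight-junction claudin, was 131 CPM in LS513, 123 in HT-29, 50.1 in LS1034, 48.7 in SNU-C1 and 28.5 in LoVo, against 55.6 in COLO-201, 36 in WiDr and 2.4 to 8.94 in the others. CDH1, E-cadherin, stood at 27.1 to 43.6 CPM against 4.23 to 59.4 CPM. Other CEACAM genes, whose close paralogy makes counts uncertain, had 0 of 9, and CEACAM1 was highest in WiDr at 89.2 CPM. Wnt and stem cell genes had 0 of 24 higher and 1 lower, APCDD1, which SW480 alone carried at 283 CPM. LGR5, the stem cell receptor, was 57.2 CPM in LoVo and 1.59 to 15.9 CPM in every other line. Enteroendocrine genes had 1 of 13, INSM1, at 2.86 to 30.9 CPM against 1.75 to 8.18 CPM, a range that silent genes also reached.

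Transcripts abundant in vesicles did not separate the groups. RAB13 and NET1, mRNAs known to collect in cell protrusions, were among the highest here. RAB13 was 1942 CPM in LS513, 288 in SNU-C1, 2168 in LS1034, 6706 in LoVo and 1908 in HT-29, and 2993 in WiDr, 5086 in COLO-201, 7442 in SW480, 1066 in LS123 and 8676 in HCT 116. SNU-C1 and LS123, the libraries with the highest silent-gene shares, were the lowest of their groups for RAB13, and also for NET1 (406 and 677 CPM). The protrusion list had 0 of 10 members with a p under 0.05 and a median of -0.53. Vesicle and endosome markers had 1 of 24, RAB27B, a GTPase of vesicle secretion, at 103 CPM in LS513, 42.8 in HT-29, 23.7 in LoVo, 8.62 in SNU-C1 and 2.63 in LS1034 against 0.0693 to 18.6 CPM. The tetraspanins CD9, CD63 and CD81 had log2 fold changes of -0.09 ± 0.72, -0.38 ± 0.69 and 0.24 ± 0.41 (edgeR adjusted p 0.996, 0.981 and 0.977). Cytosolic ribosomal protein mRNAs (0 of 79, median 0.06), mitochondrially encoded mRNAs (0 of 13, median 0.28), NRF2 targets (0 of 17, median -0.31) and cancer-testis antigens (0 of 8, median 0.95, with uncertain counts because of close paralogs) had no member with a p under 0.05.

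Markers of other cell types were read in the vesicles of both groups, in some lines above their level in cells. Leukocyte markers (12 genes) summed to 20.2 to 256 CPM of library total in the higher-scoring and 12.7 to 244 CPM in the lower-scoring vesicles. Cells held at most 46.6 and 10.6 CPM. SNU-C1 and LS123, the libraries with the highest silent-gene shares, had the highest sum of each group. CSF1R reached 70.4 CPM of library total in SNU-C1 vesicles. GZMB, scaled by TMM, reached 76.2 CPM in LS1034 vesicles and 41.4 CPM in LS1034 cells. All 10 leukocyte markers tested had a log2 fold change above 0, with a median of 0.60, between those of the intestinal transcription factors and the brush border genes, and GZMB alone had a p under 0.05. Erythroid and platelet markers (8 genes) summed to 11.2 to 87.5 and 8.98 to 390 CPM, with HBB, a globin whose paralogs share sequence, highest in LS123 and the only member at a p under 0.05, lower in the higher-scoring lines. Hepatocyte and serum protein genes (12) summed to 39.1 to 267 and 18.6 to 770 CPM, led by SERPINA1, which stood at 413 CPM in WiDr vesicles and 768 CPM in WiDr cells. Fibroblast and endothelial markers (13) summed to 44.4 to 863 and 39.4 to 783 CPM, highest in SNU-C1 and LS123, against at most 36.2 and 108 CPM in cells, with a median log2 fold change of 0.32. In order, 5, 4, 5 and 2 members of these lists had 0 counts in at least 1 vesicle library, as did 1 keratinocyte marker. Hepatocyte and fibroblast and endothelial lists had 0 members with a p under 0.05. Among 9 keratinocyte markers 3 had a p under 0.05: SPRR1A and FLG higher, KRT5 lower. KRT5, a basal keratin, was 1791 CPM in SW480 vesicles and 1561 CPM in SW480 cells and 26.7 CPM or less in all other vesicles, so that its log2 fold change of -5.17 came to -0.35 without SW480. The part of these markers in the group differences was not tested.

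Differences between the groups were smaller in vesicles than in cells for most lists. Vesicle RNA was isolated and amplified as described above, and the part of library preparation in this contrast was not tested. For the members in both fits, brush border genes had a median log2 fold change of 0.90 in vesicles and 2.72 in cells (20 genes). Mucin and secretory genes had 0.91 and 2.80 (25 genes), mesenchymal genes -0.43 and -2.35 (26 genes), and MAPK output genes -1.01 and -0.73 (16 genes). Over 10051 genes with at least 10 CPM in 1 cell group, the 2 log2 fold changes had a Pearson correlation of 0.53 and a Spearman correlation of 0.43 across genes, as a description, since both come from the same lines. The 62 genes whose cell log2 fold change was above 4 had a cell median of 4.95 and a vesicle median of 1.37, with 57 of 62 above 0. The 51 genes below -4 in cells had medians of -5.08 and -1.50, with 9 above 0 in vesicles. Both sets of genes were picked by their cell values, and the groups were set on the same cell libraries. Selection alone would thus give smaller vesicle medians, and its part in the contrast was not tested. FABP1 and CDX1, at most 1.26 and 0.625 CPM in the cells of the lower-scoring lines, read 0.832 to 9.06 and 1.23 to 4.26 CPM in their vesicles. With the expected background subtracted from each library, the vesicle log2 fold change of RHOU was 5.01 in place of 3.03 and that of FABP1 7.77 in place of 5.65. Of the 24 leading genes, 23 were tested in this way, and the difference was larger in 21 and smaller in 2, LGALS1 (-4.65) and MSX1 (-2.36). The smallest edgeR adjusted p was 0.979 there. Subtraction by itself widens a ratio whose smaller side lies near the background. RHOU was such a gene, with 165 counts against 129 expected in the lower-scoring lines. The number of genes with a larger difference therefore does not test whether background had narrowed the differences.

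**Figure D4:**
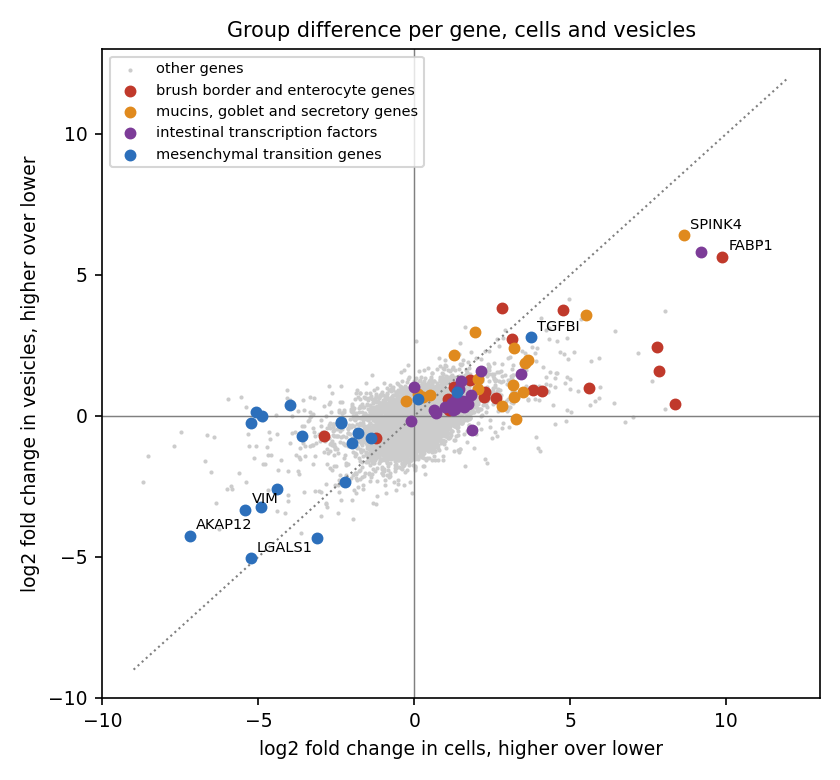
Log2 fold change, higher- over lower-scoring lines, in cells (x axis) and vesicles (y axis) for genes with at least 10 CPM in 1 cell group. Each point is a gene, colours mark 4 gene lists and the dotted line is equality. SPINK4 and FABP1 are high in both, AKAP12 and LGALS1 low in both, and most coloured points lie nearer to 0 on the y axis than on the x axis.

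**Figure D5:**
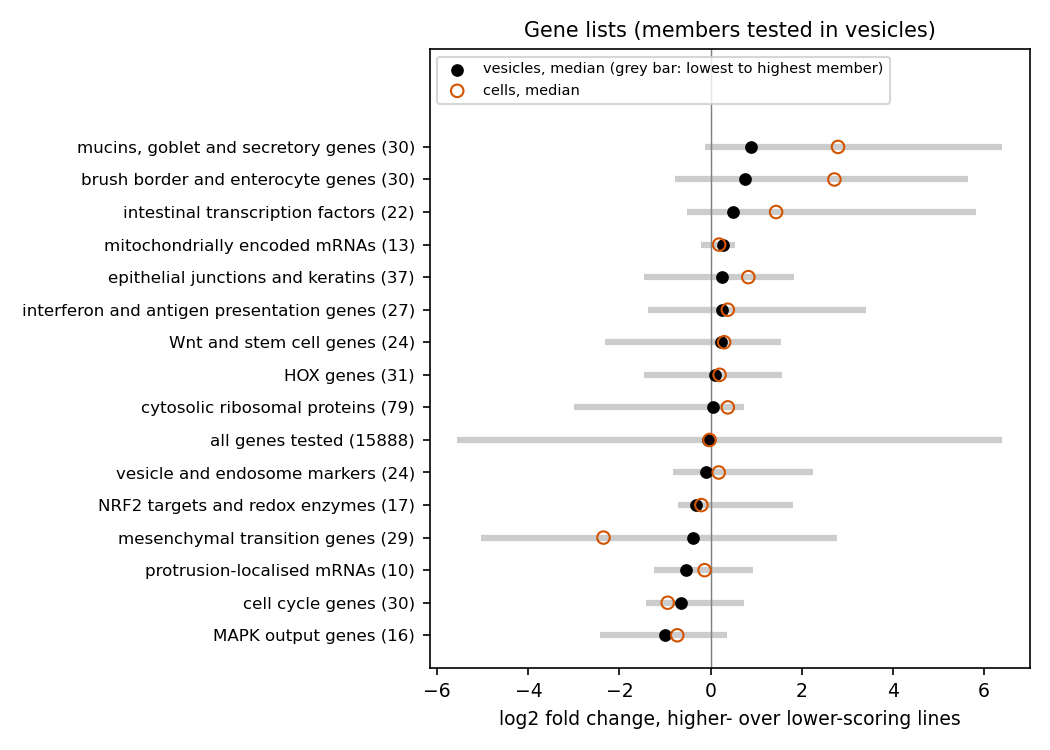
Median log2 fold change, higher- over lower-scoring lines (x axis), of each gene list with at least 10 members in the cell fit (y axis, with members tested in vesicles in parentheses). Filled points are vesicles, open points cells and grey bars the lowest to highest member in vesicles. Mucin and brush border lists lie highest in vesicles at 0.89 and 0.76, and MAPK output genes lowest at -1.01.

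HT-29 and WiDr, on either side of the boundary, give a direct view of how a line pair of 1 donor reads in vesicles. HT-29 had 24.4 M vesicle counts with 0.206% on silent genes, and WiDr 2.93 M with 2.47%. KRT20 was 433 CPM in HT-29 cells and 375 in WiDr cells, but 1355 and 123 CPM in vesicles. TSPAN8 was closer, at 567 and 378 CPM in vesicles, and REG4 at 35.9 and 32.2 CPM. FGF19 was higher in WiDr in both compartments, at 261 against 89.4 CPM in cells and 32.9 against 11 CPM in vesicles. AKR1B10, an aldo-keto reductase, stood at 1012 CPM in HT-29 vesicles and 283 in WiDr vesicles, with 15.2 CPM or less in all others. In cells the order was reversed, at 228 CPM in HT-29 and 381 in WiDr, and SNU-C1 cells held 88.2 CPM.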

How the data were processed

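The authors deposited unnormalised read counts of 17113 protein-coding genes, which the submitters' processing notes link to STAR, featureCounts and hg19. Versions, annotation and strand setting are not given in the sources used here. Every column was matched to its library by title, and 0 value columns were left unmapped. Counts were scaled by TMM and tested with edgeR 4.0.16 (robust quasi-likelihood fit, R 4.3.3) after the filterByExpr filter (10 counts in a library of median size, about 2.19 CPM, in 5 libraries), with Benjamini-Hochberg adjustment over 15888 genes and a threshold of 0.05. The scripts were tested on simulated data. Cell log2 fold changes came from the same fit on the cell libraries and carry no test. The members, the 23 gene lists and the rules were chosen with earlier results of these data known.

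The naming rule took, in each direction, the 12 genes with the largest change among those past the threshold. As none passed, it took the smallest unadjusted p among genes averaging 10 CPM or more in the group where they are higher, then 2 genes per list and a fixed set of intestinal and vesicle genes, of which 1 is not reported here. Other list members with a p under 0.05 are named because their counts are given. Alternatives covered scaling, DESeq2 1.42.0, limma 3.58.1 voom with quality weights, filters, the group boundary, background reads and leaving out libraries. Expected background was the silent genes' reads per exonic length, using GENCODE release 29 lengths, found for 17078 genes. Promoters came from RefSeq tables of GRCh38.p14. Reads of overlapping genes and close paralogs cannot be told apart.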

Additional observations from a re-analysis of the deposited data

Results flagged for a closer look

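In groups of 5 lines, a library was singled out where its gap to the nearest of the others exceeded Dixon's 95% limit, which chance passes in about 1 of 20 groups tested. Of 186 groups tested, 10 passed it, close to that rate. GMFG stood at 238 CPM in COLO-201 vesicles, with 6.12 to 15.1 CPM in the other lower-scoring lines. PAX4, an endocrine factor, stood at 13.9 CPM in LS123 against 3.13 to 4.37 CPM. RPL39L, a ribosomal protein paralog, stood at 53.9 CPM in LoVo against 0.284 to 2.67 CPM in the other higher-scoring lines. SPRR1A, a cornified-envelope gene, stood at 257 CPM in LS513 against 0.594 to 4.25 CPM, and at 0 CPM in SW480 against 1.75 to 3.13 CPM. HNF4A stood at 2.62 CPM in HCT 116 against 26.6 to 60.3 CPM. EPCAM stood at 51.1 CPM in SNU-C1 against 295 to 560 CPM. HT-29 had 24.4 M vesicle counts against 1.75 to 7.95 M. The mitochondrially encoded mRNAs took 0.609% of vesicle counts in LS513 against 0.0184 to 0.169%. Erythroid and platelet markers took 0.039% in LS123 against 0.000898 to 0.00805%.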

How the results depend on the processing

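The count of 0 genes called in each direction held in every edgeR and limma setting except these. DESeq2 called 7 higher (RHOU, FABP1, GPR160, CDX1, DDC, IGFL2 and KLK1) and 18 lower, the edgeR fit without WiDr and LS123 called 2 lower, and 6 against 4 lines, chosen after seeing the data, called 1 lower. Leaving out each vesicle library in turn gave 0 to 0 calls in either direction. The 24 leading genes had 1 sign in all alternatives in which they were tested. Unadjusted counts of 326 higher and 336 lower became 252 and 456 with DESeq2 size factors, 350 and 184 with upper-quartile scaling, 191 and 176 with library size only, 966 and 316 with voom, 559 and 378 with the silent-gene share as covariate, 558 and 1103 with 4 against 4 lines, and 2598 and 1175 without WiDr and LS123. The median of all genes moved from -0.05 to -0.13, 0.13 and 0.09 with the 3 other scalings. No paired analysis was possible because the labels give no replicate numbers and each line is in 1 group only.

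Some values changed sign, and the cause was not tested beyond the library left out. CEACAM1 (-0.54) became 0.23 with voom, 0.96 with 4 against 4, 0.97 with 3 against 3, 0.79 with the continuous score, 1.32 without WiDr and LS123, 1.57 with 6 against 4, and -0.87 to 0.82 without single libraries (0.82 without WiDr). SERPINA1 (-0.45) became 0.11, 1.18, 1.36, 1.39, 1.84 and 2.71 in the same settings, and -1.11 to 1.89 without single libraries (1.89 without WiDr). EPCAM (-0.01) became 0.23 with upper-quartile scaling, 0.19 with library size only, 0.03 with voom, 0.04 with a 10 CPM filter, 0.29 with the covariate, 0.09 with background subtracted, and -0.28 to 0.29 without single libraries (0.05 without LoVo, 0.29 without COLO-201 or SNU-C1, 0.01 without SW480). CD9 (-0.09) became 0.29, 0.32, 0.45, 0.01, 0.43 and 0.24 in the first 6 of these and -0.42 to 0.42 without single libraries (0.18 without SNU-C1, 0.42 without SW480). TF (0.23) became -0.02 without COLO-201 or HCT 116, -0.33 without SNU-C1 and -0.08 without SW480 (-0.33 to 0.88 over single libraries). RPL39L (-2.99) became 0.26 with voom, 0.93 with 3 against 3 and 2.30 without COLO-201 (-5.68 to 2.30). MAGEA3 (-2.31), close in sequence to other MAGEA genes, became 0.84 with voom and 0.09 without HCT 116 (-3.13 to 0.09). MT-CO1 (0.46) became -0.13 without WiDr and LS123, -0.08 with 6 against 4 and -0.40 without LS513 (-0.40 to 1.13), and MT-ND3 (0.54) -0.23 and -1.76 in the first and last of these (-1.76 to 2.19). CD63 (-0.38) became 0.32 with 6 against 4 and 0.03 without WiDr (-0.68 to 0.03). Single changes were AKR1B10 -2.94 without HT-29 (-2.94 to 5.80), TFF3 -0.83 without LS513 (-0.83 to 4.40), LGR5 -0.21 without LoVo (-0.21 to 1.59), APCDD1 0.31 without SW480 (-2.71 to 0.31), and, with the covariate, ITGA2B -0.01 and NET1 0.03. The difference in vesicle counts, higher minus lower, was -1.51 M and ran from -5.5 to 1.73 M without single libraries (0.258, 0.148 and 1.73 without COLO-201, SNU-C1 and SW480). The difference in silent-gene share was 0.378 points and ranged from -0.227 (without SNU-C1) to 0.897 (without LS123).

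The groups held 5 lines each with 1 library per line, and vesicle depths started from 1.75 M counts. Differences in genes near the level of silent genes could be missed in such data. How far depth, background reads or the spread between lines limited the calls was not tested. Tests treat all lines as independent, which HT-29 and WiDr are not. LS123 cells were closest to HCT 116 cells (r = 0.95), and whether that library holds LS123 was not tested. Without LS123 edgeR called 0 genes.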
